A study of Homo sapiens with 8 samples.

Results

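The aminoacyl-tRNA synthetases were followed across 8 arrays of A375, a human melanoma cell line with an activating BRAF mutation. The family was taken as 35 named genes, 19 for cytosolic and 16 for mitochondrial enzymes, out of 19775 genes with a probe set paired with exactly 1 gene symbol. Of the 35, 32 were measured, 17 cytosolic and 15 mitochondrial. MARS1, QARS1 and TARS2 had no probe set paired with exactly 1 symbol and were not analysed here. Where a gene had several probe sets, the one with the highest average log2 intensity across arrays stands for it.

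All cells were A375. The arrays of medium were siBRAF in glutamine-free medium, siBRAF in normal medium, siCont (a nontargeting siRNA) in glutamine-free medium, siATF4 in normal medium and siCont in normal medium, with 18 h of culture per the labels' protocols. The drug arrays were siATF4 in 10 uM vemurafenib, siCont in 10 uM vemurafenib and siCont in DMSO, with 4 h of treatment. Vemurafenib inhibits the mutant BRAF kinase, and ATF4 is a transcription factor made when amino acids run short. Each condition had 1 array, so no difference below has a replicate check and none was tested. They describe pairs of arrays of 1 cell line and 1 siRNA label per target.

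Aminoacyl-tRNA synthetases join each amino acid to its transfer RNA before protein synthesis. Most amino acids have separate cytosolic and mitochondrial enzymes, both encoded in the nucleus, while GARS1 (glycine) and KARS1 (lysine) serve both compartments from 1 gene. Several cytosolic enzymes sit in a multisynthetase complex and others act free in the cytosol. When amino acids are scarce, the eIF2 alpha kinases raise translation of ATF4. It binds composite C/EBP-ATF response elements near amino acid synthesis, transport and charging genes.

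The letters of such an element were looked for in RefSeq promoter windows (GRCh38.p14) of 250 bases before and 50 bases after each annotated start. The core TGATGNAA was searched on both strands. It was held by 7 of 16 cytosolic synthetase genes with a window, 1 of 14 mitochondrial ones and 1217 of all 27305 genes with a window (4.46%). With C in place of N, TGATGCAA was held by 6 of the 16 cytosolic genes, 0 of the 14 mitochondrial ones and 295 of all genes (1.08%). It is a part of the TGATGNAA matches, not a separate motif. LARS1, VARS1, YARS1, AARS2 and VARS2 have no entry in the table. The 60-base stretches around the matches are shown so that the matched sequences can be compared. Matched and unmatched genes both recur in the comparisons below: WARS1 and SARS1 hold no match, and YARS1 was not searched. They run 5′ to 3′ on the gene's strand, with the 8 bases of the match in capitals, so TTGCATCA and TTTCATCA are matches on the opposite strand. ASNS, asparagine synthetase, a known target of ATF4, is added for comparison. Of 15 listed ATF4 targets with a window 4 held TGATGNAA, ASNS among them, and 1 held TGATGCAA, so most of these targets had no match in this window.
AARS1 (chr16:70289660-70289719, minus strand): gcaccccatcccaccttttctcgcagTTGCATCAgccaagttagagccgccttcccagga
CARS1 (chr11:3057392-3057451, minus strand): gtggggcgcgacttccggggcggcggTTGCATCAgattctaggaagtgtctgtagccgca
GARS1 (chr7:30594819-30594878, plus strand): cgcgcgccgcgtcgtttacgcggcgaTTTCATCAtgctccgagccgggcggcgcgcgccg
IARS1 (chr9:92293677-92293736, minus strand): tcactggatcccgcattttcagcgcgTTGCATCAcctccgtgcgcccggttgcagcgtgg
NARS1 (chr18:57621789-57621848, minus strand): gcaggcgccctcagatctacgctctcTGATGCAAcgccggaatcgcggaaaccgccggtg
TARS1 (chr5:33440941-33441000, plus strand): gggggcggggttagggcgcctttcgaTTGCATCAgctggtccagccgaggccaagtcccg
MARS1 (chr12:57488038-57488097, plus strand): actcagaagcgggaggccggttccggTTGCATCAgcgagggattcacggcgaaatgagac
YARS2 (chr12:32756061-32756120, minus strand): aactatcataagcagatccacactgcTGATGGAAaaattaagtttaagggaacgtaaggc
ASNS (chr7:97872443-97872502, minus strand): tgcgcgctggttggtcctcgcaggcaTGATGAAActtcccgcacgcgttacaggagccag

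The matches began close to the annotated start in most of these genes. With the first transcribed base counted as 0, they began at -2 in CARS1, -4 in MARS1, -13 in IARS1, -33 in GARS1, 2 in TARS1 and 14 in NARS1. In AARS1 the match began farther upstream, at -187, and in the mitochondrial YARS2 at -197. GARS1, TARS1, CARS1 and ASNS have a pair of annotated starts each, and the window that holds the match is the one shown. A match is a description of these letters and not a bound site. The whole 300-base windows of CARS1, which holds a match, and of WARS1, where neither of 2 windows does, are printed because they were the cytosolic genes with the most negative difference with siATF4 in vemurafenib and the highest difference without glutamine.
CARS1 (chr11:3057374-3057673, minus strand): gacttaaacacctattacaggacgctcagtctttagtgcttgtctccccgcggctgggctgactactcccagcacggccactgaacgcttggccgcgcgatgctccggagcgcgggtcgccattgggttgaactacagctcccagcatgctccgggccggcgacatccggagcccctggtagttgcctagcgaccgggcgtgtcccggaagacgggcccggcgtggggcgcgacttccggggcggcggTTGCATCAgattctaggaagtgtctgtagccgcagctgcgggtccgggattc
WARS1 (chr14:100376278-100376577, minus strand): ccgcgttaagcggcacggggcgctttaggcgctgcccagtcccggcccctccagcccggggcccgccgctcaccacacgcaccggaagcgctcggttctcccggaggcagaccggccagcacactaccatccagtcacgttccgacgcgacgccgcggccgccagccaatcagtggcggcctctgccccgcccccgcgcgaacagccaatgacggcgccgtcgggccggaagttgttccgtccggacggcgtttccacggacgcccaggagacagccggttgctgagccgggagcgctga

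The 2 sets of arrays differed in scale, with median intensities of 14.8 to 15.5 on the 5 medium arrays and 36.4 to 36.9 on the 3 drug arrays. Levels were therefore compared within a set. ATF4 read 534 on the siATF4 array and 1814 on the siCont array in normal medium, and 757 with siATF4 against 4548 with siCont in vemurafenib. No probe set was paired with BRAF, so the knockdown of BRAF could not be checked. Of 7 melanocyte lineage markers SOX10, MITF, TYR, S100B and S100A1 were at or above the array's median on 8 of 8 arrays, while PMEL was on 3 and MLANA on 0. TYR, at 15.4 to 17.7 on the medium arrays, was close to the array's median. Of 7 markers of other cell types CD3E, PECAM1, KRT5 and COL1A1 were at or above it on 8, VWF on 3, and PTPRC and EPCAM on 0. On the medium arrays KRT5 read 18.4 to 22.0, CD3E 21.0 to 31.3 and PECAM1 24.7 to 32.2, not far above the median. COL1A1 read 106 to 123 there. The part of these markers in the results was not tested. All 32 measured synthetases were at or above the array's median on 8 of 8 arrays. MARS2 came closest to it, at 2.24 times the median on its lowest array, against 190 times for KARS1. A gene entered a comparison if 1 of its 2 values reached that median. Differences are of log2(intensity + 1), and a gene is counted where it differed at least 2-fold (a difference of 1 or more).

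**Figure D1:**
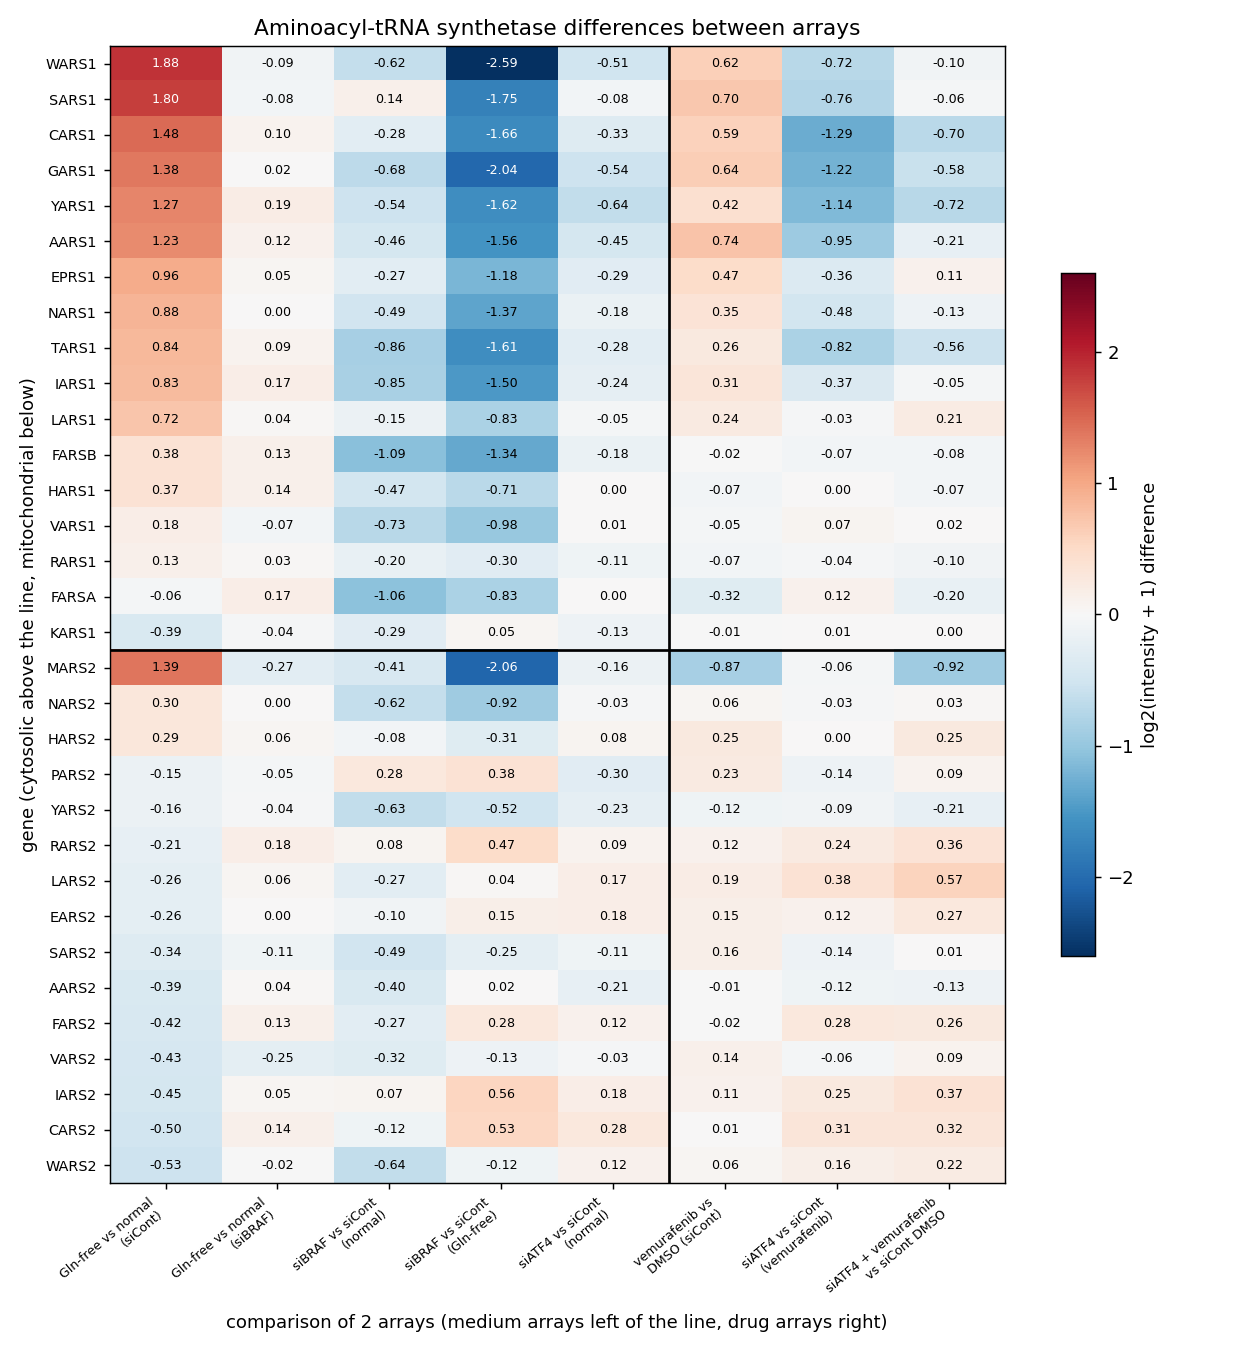
Differences of log2(intensity + 1) for the 32 measured synthetases (rows) in 8 comparisons of 2 arrays each (columns), red where the first-named array was higher and blue where it was lower. The highest cell is WARS1 without glutamine in siCont cells (1.88) and the lowest is WARS1 with siBRAF without glutamine (-2.59), while the column for the change of medium in siBRAF cells stays between -0.27 and 0.19.

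Without glutamine, siCont cells read higher for most cytosolic enzymes and slightly lower for most mitochondrial ones. In bulk RNA, fewer cells with a transcript and less of it per cell cannot be told apart. Of the 17 cytosolic genes, 6 stood at least 2-fold higher and 0 lower, where 5.76% of all 13359 genes tested were higher and 7.22% lower, 13% together. Their median difference was 0.84, against -0.05 over all genes, and 15 of the 17 lay above 0. The 15 mitochondrial genes had a median of -0.26, with 12 below 0, 1 at least 2-fold higher and 0 lower.

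The tryptophan enzyme WARS1, which is also induced by interferon, stood highest. Its intensity was 2097 in glutamine-free and 568 in normal medium in siCont cells, while it read 347 and 369 in the same media in siBRAF cells and 398 with siATF4 in normal medium. The siCont glutamine-free array was thus the 1 high array among the 5, with a difference of 1.88 (3.69-fold) within siCont cells. Only 1.18% of all genes had a more positive difference. The serine enzyme SARS1 read 2589 in glutamine-free and 742 in normal medium in siCont cells, a difference of 1.80. In siBRAF cells it read 771 and 815, and with siATF4 701, so the 4 other arrays lay close together on the probe set used.

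The cysteine enzyme CARS1 read 2450 without and 877 with glutamine in siCont cells, a difference of 1.48. GARS1, the glycine enzyme of both compartments, read 3609 and 1383 on these arrays, a difference of 1.38. For the tyrosine enzyme YARS1 the intensities were 2618 and 1084, a difference of 1.27. The alanine enzyme AARS1 completed the 6, with 1523 and 648 and a difference of 1.23. The siBRAF arrays without and with glutamine read 775 and 723 for CARS1, 876 and 862 for GARS1, 851 and 746 for YARS1, and 514 and 471 for AARS1. All were below the siCont array in normal medium. CARS1, GARS1 and AARS1 are 3 of the genes whose windows are printed above. The call of YARS1 rests on the probe set used: it was under 2-fold in 2 of 6 other settings, down to 0.44 on its other probe set.

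Below the 2-fold mark came EPRS1, which charges both glutamate and proline (0.96), NARS1 for asparagine (0.88), TARS1 for threonine (0.84), IARS1 for isoleucine (0.83) and LARS1 for leucine (0.72). FARSB and FARSA, the beta and alpha subunits of the phenylalanine enzyme, stood at 0.38 and -0.06. HARS1 for histidine (0.37), VARS1 for valine (0.18) and RARS1 for arginine (0.13) differed less. KARS1, the lysine enzyme of both compartments, read 3455 without and 4533 with glutamine, a difference of -0.39. GARS1 and KARS1, which both serve the 2 compartments, thus stood at 1.38 and -0.39, and KARS1 was the lowest cytosolic gene.

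As a measure of RNA integrity, the log2 gap between 3′ and 5′ actin probes was 0.28 on the siCont glutamine-free array and 0.16 on that of siCont cells in normal medium. The other 3 medium arrays had gaps of 0.16 to 0.20. For GAPDH it was 0.13 and 0.11 on the 2 siCont arrays. The part of this gap in the differences was not tested.

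MARS2, the mitochondrial methionine enzyme, stood apart from the other mitochondrial genes. It read 187 in glutamine-free and 70.8 in normal medium in siCont cells, 43.9 and 53.0 in these media in siBRAF cells, and 63.4 with siATF4. Its difference without glutamine in siCont cells was 1.39, where the next mitochondrial genes, NARS2 and HARS2, stood at 0.30 and 0.29. The other 12 lay between -0.15 for PARS2, the proline enzyme, and -0.53 for WARS2. MARS2 rests on 1 probe set, and its cytosolic counterpart was not measured.

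Set against each other for the same amino acid, the cytosolic gene had the more positive difference in 12 of 12 pairs of genes. WARS1 exceeded WARS2 by 2.42, SARS1 exceeded SARS2 by 2.14 and CARS1 exceeded CARS2 by 1.99. The probe set used for CARS2 gave -0.50. Its dimmer probe sets at or above the median on 8 of 8 arrays gave 0.71 and -0.10. For histidine the gap was 0.08, the smallest, with HARS1 at 0.37 and HARS2 at 0.29. HARS1 and HARS2 are transcribed away from each other on chromosome 5, and their promoter windows share 184 bases (chr5:140691321-140691504). In the pairs, FARSA stood for phenylalanine.

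Cytosolic enzymes inside and outside the multisynthetase complex overlapped. Of 12 free enzymes 6 were at least 2-fold higher, with a median of 1.06, and of 5 measured members of the complex (EPRS1, IARS1, KARS1, LARS1 and RARS1) 0 were, with a median of 0.72, where 5.76% of all genes were. Differences ran from -0.06 to 1.88 for the free enzymes and from -0.39 to 0.96 for the complex. The contrast in counts depended on the threshold: at 1.5-fold, a threshold chosen after the values were seen, 8 of 12 free enzymes and 3 of 5 members of the complex were higher. Structural class did not separate the genes: 3 of 7 class I and 3 of 9 class II enzymes were at least 2-fold higher, with medians of 0.83 and 0.84. EPRS1 joins both classes and was left out of that split.

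**Figure D2:**
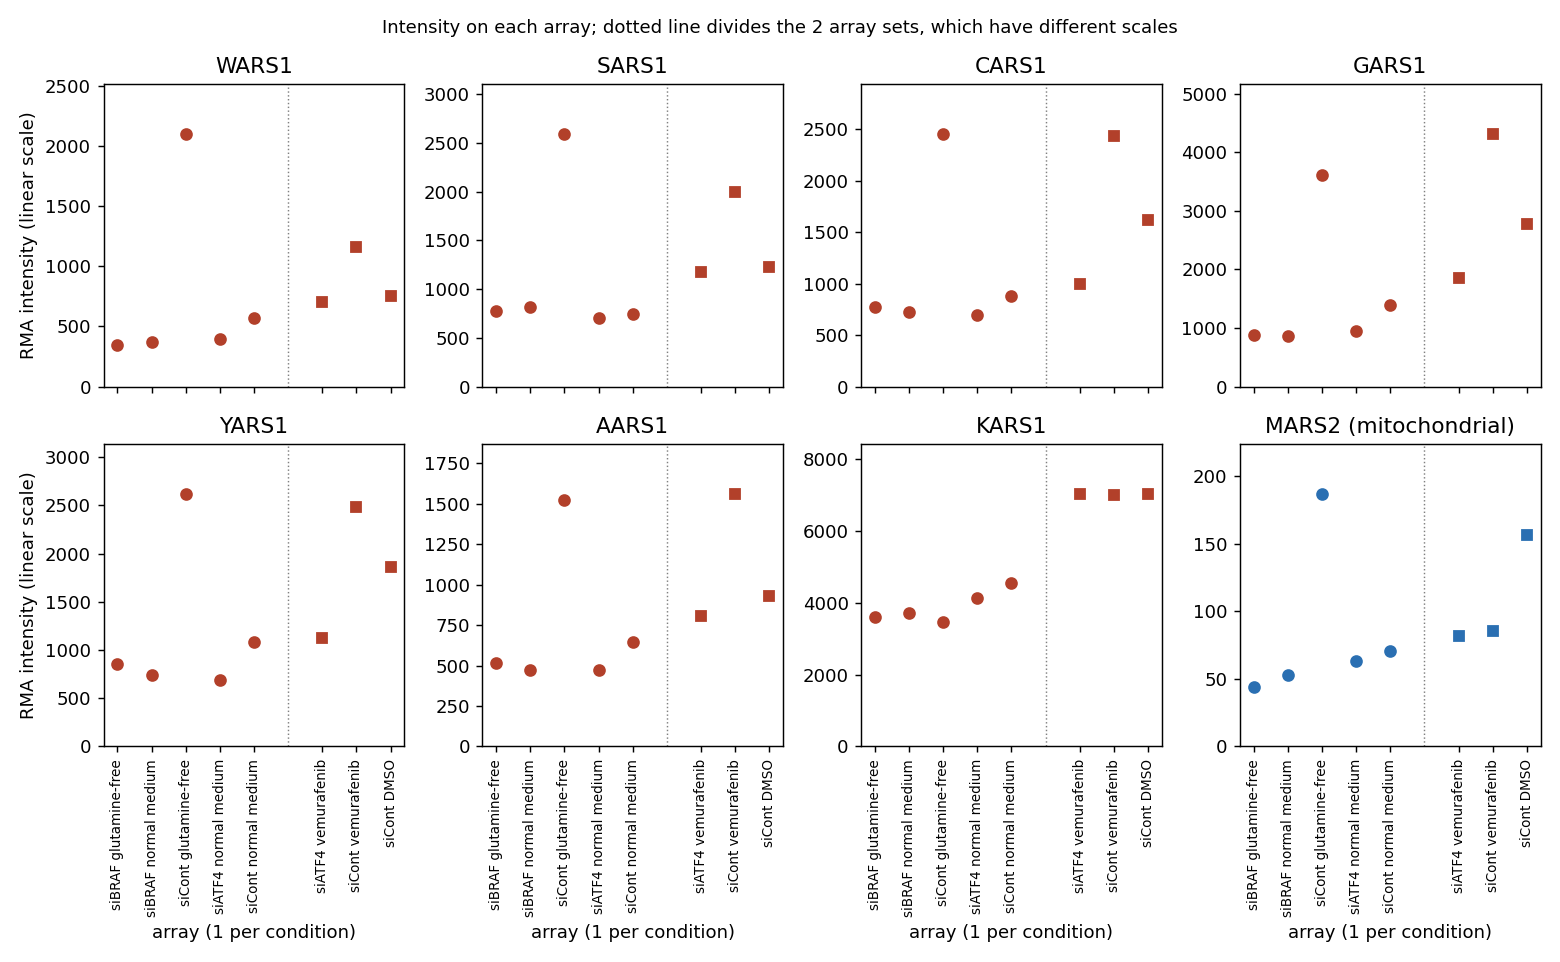
RMA intensity on a linear scale (vertical axis, from 0) on each of the 8 arrays (horizontal axis) for 8 synthetase genes, with circles for the medium arrays and squares for the drug arrays. WARS1, SARS1, CARS1, GARS1, YARS1 and AARS1 are highest among the medium arrays on siCont glutamine-free, as is MARS2 at 187, while KARS1 is lowest there at 3455.

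The same change of medium in siBRAF cells went with differences under 2-fold for all 32 synthetases. The cytosolic genes had a median of 0.05, between -0.09 for WARS1 and 0.19 for YARS1, and the mitochondrial genes one of 0.00, between -0.27 for MARS2 and 0.18 for RARS2, the mitochondrial arginine enzyme. Over all genes tested, 0.0457% stood at least 2-fold higher and 0.0761% lower in this pair, 0.122% together. The response in siBRAF cells minus that in siCont cells had a median of -0.75 over the cytosolic genes, with 6 of 17 at least 2-fold more negative and 0 more positive, where 5.44% and 7.73% of all genes were. The 6 were WARS1 (-1.97), SARS1 (-1.88), CARS1 (-1.38), GARS1 (-1.36), AARS1 (-1.11) and YARS1 (-1.08). For the mitochondrial genes the median was 0.25, with 1 of 15 at least 2-fold more negative, MARS2 at -1.65. These values rest on 4 arrays and use the siCont pair of the comparison of media above, so they are not separate evidence.

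On the siBRAF array in normal medium, the synthetases of both compartments stood somewhat lower. Of the 17 cytosolic genes 16 lay below 0, with a median of -0.49, and of the 15 mitochondrial genes 12 did, with a median of -0.27, against -0.01 over all genes. Only FARSB and FARSA were at least 2-fold lower, and 0 were higher, where 7.6% of all genes tested were lower and 7.15% higher, 14.8% together. FARSB read 209 with siBRAF against 447 with siCont, a difference of -1.09. FARSA read 340 with siBRAF against 711 with siCont, a difference of -1.06. The 2 subunits of 1 enzyme thus had nearly the same difference. Next came TARS1 (-0.86), IARS1 (-0.85) and VARS1 (-0.73). SARS1 stood at 0.14 and was the 1 cytosolic gene above 0. Its other, dimmer probe set, at or above the median on 8 of 8 arrays, gave -1.28, opposite in sign. Lowest among the mitochondrial genes were WARS2 (-0.64), YARS2 (-0.63) and NARS2 (-0.62), and PARS2 was highest at 0.28. In this pair the cytosolic gene was the more negative in 7 of 12 pairs.

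Without glutamine the siBRAF array lay below the siCont array for nearly all cytosolic genes. Of 17, 11 were at least 2-fold lower and 0 higher, where 10.8% of all genes tested were lower and 12.8% higher, 23.7% together, and the median was -1.37 against 0.02 over all genes. This pair shares its siCont glutamine-free array with the comparison of media above, so its values are not separate evidence. WARS1 read 347 with siBRAF against 2097 with siCont, a difference of -2.59 (6.03-fold). GARS1 read 876 with siBRAF against 3609 with siCont, a difference of -2.04. SARS1 (-1.75), CARS1 (-1.66), YARS1 (-1.62), TARS1 (-1.61), AARS1 (-1.56), IARS1 (-1.50), NARS1 (-1.37), FARSB (-1.34) and EPRS1 (-1.18) made up the rest of the 11. Those of YARS1 and FARSB were under 2-fold in some other settings, at up to -0.36 and -0.58. All 6 measured cytosolic genes with the element were among them, and so were 4 of 8 without it. TARS1 read 752 with siBRAF against 2304 with siCont, IARS1 1036 against 2940 and NARS1 1268 against 3285, in the same order. EPRS1 read 916 with siBRAF against 2078 with siCont, and FARSB 229 against 581. On each of these 11 genes the siCont glutamine-free array was the highest of the 5 medium arrays. KARS1 read 3587 with siBRAF against 3455 with siCont, a difference of 0.05, and was the only cytosolic gene above 0.

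The mitochondrial genes had a median of 0.02 in this pair. MARS2, at 43.9 with siBRAF against 187 with siCont (-2.06), was the 1 gene at least 2-fold lower, and NARS2 followed at -0.92. IARS2 and CARS2 were highest at 0.56 and 0.53, opposite to IARS1 (-1.50) and CARS1 (-1.66). For CARS2 this rests on the probe set used. Its dimmer probe sets at or above the median on 8 of 8 arrays gave -0.87 and -0.04. In 12 of 12 pairs the cytosolic gene had the more negative difference, with gaps of -2.47 to -0.40.

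**Figure D3:**
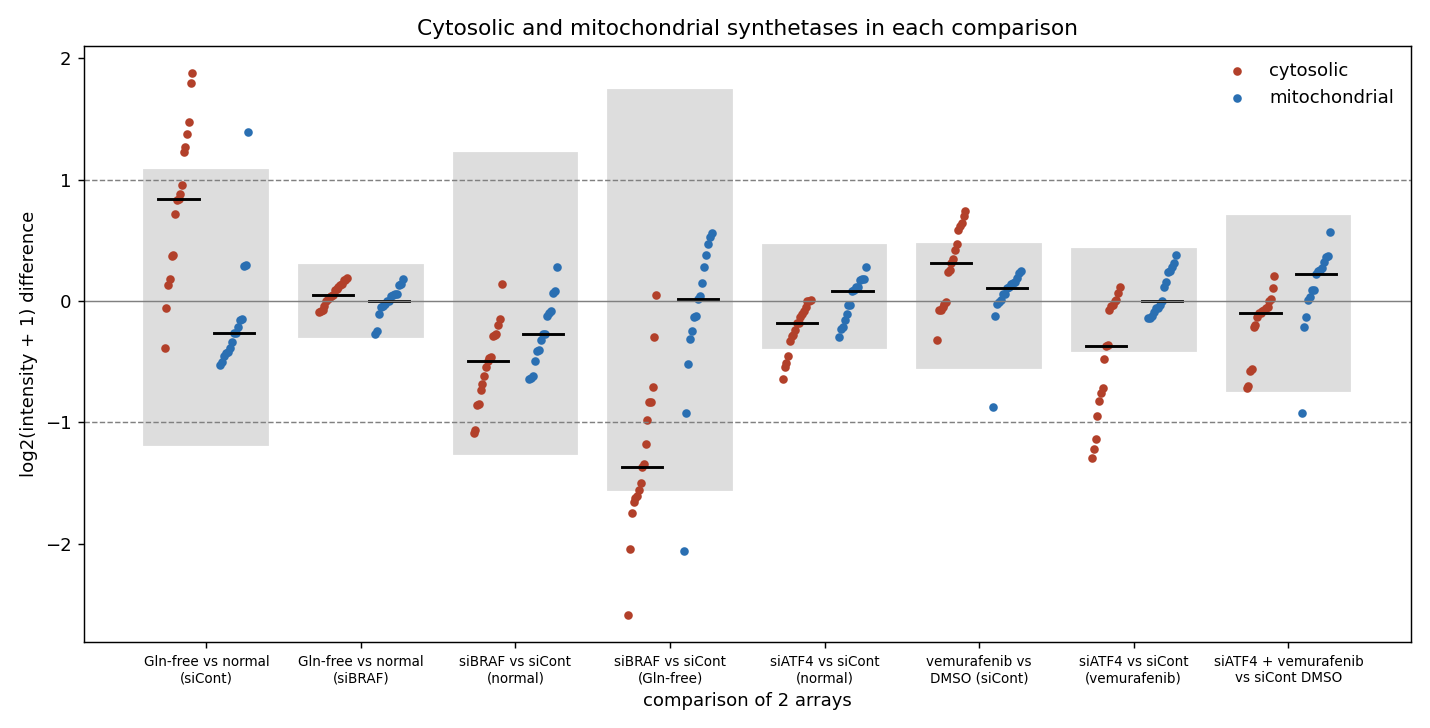
Differences of log2(intensity + 1) of each cytosolic (red, 17 genes) and mitochondrial (blue, 15 genes) synthetase in 8 comparisons, with black bars at the medians, grey boxes from the 5th to the 95th percentile of all genes tested and dashed lines at 2-fold. The cytosolic median is 0.84 without glutamine in siCont cells and -1.37 with siBRAF without glutamine, where the mitochondrial medians are -0.26 and 0.02.

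Knocking down ATF4 in normal medium went with small differences. None of the 32 synthetases was at least 2-fold apart, where 0.387% of all genes tested were at least 2-fold lower and 0.471% higher, 0.858% together. Of the cytosolic genes 16 of 17 lay below 0, with a median of -0.18 against 0.03 over all genes. YARS1 read 693 with siATF4 against 1084 with siCont, a difference of -0.64, and was lowest. Its other, dimmer probe set gave 0.19, opposite in sign. GARS1 read 953 against 1383 (-0.54), WARS1 398 against 568 (-0.51) and AARS1 475 against 648 (-0.45), with the siATF4 array first in each. SARS1, among the highest without glutamine, stood at -0.08. The mitochondrial genes had a median of 0.08, between -0.30 for PARS2 and 0.28 for CARS2.

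Vemurafenib for 4 h went with higher values of 11 of 17 cytosolic genes, 11 of 15 mitochondrial genes and 7205 of all 13160 genes tested. Of the 32 synthetases 0 were 2-fold apart, where 0.859% of all genes tested were at least 2-fold higher and 1.92% lower, 2.78% together. The cytosolic median was 0.31 against 0.02 over all genes. AARS1 read 1561 in vemurafenib against 933 in DMSO, a difference of 0.74 that 1.84% of all genes exceeded. For SARS1 the intensities were 1993 and 1223 (0.70), for GARS1 4307 and 2770 (0.64), for WARS1 1162 and 755 (0.62) and for CARS1 2437 and 1616 (0.59). These 5 are among the 6 genes named above for the change of medium. FARSA was lowest of the cytosolic genes at -0.32, and KARS1 stood at -0.01.

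The mitochondrial median in vemurafenib was 0.11, and HARS2 was highest at 0.25. MARS2 read 85.3 in vemurafenib against 157 in DMSO, a difference of -0.87. It was the lowest of all 32, opposite in sign to its difference without glutamine. The other 14 mitochondrial genes lay between -0.12 and 0.25.

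In vemurafenib, the siATF4 array lay below the siCont array for 13 of 17 cytosolic enzymes. This pair shares its siCont vemurafenib array with the comparison of vemurafenib and DMSO above, so its values are not separate evidence. Of the 17 cytosolic genes 3 stood at least 2-fold lower and 0 higher, where 0.729% of all genes tested were lower and 0.205% higher, 0.934% together, and the median was -0.37 against 0.03 over all genes. CARS1 read 998 with siATF4 against 2437 with siCont, a difference of -1.29 (2.44-fold). GARS1 read 1851 with siATF4 against 4307 with siCont, a difference of -1.22. YARS1 read 1126 with siATF4 against 2480 with siCont, a difference of -1.14, which was under 2-fold in 2 of 6 other settings (-0.69 on its other probe set). These 3 were below their DMSO intensities of 1616, 2770 and 1859 as well. AARS1 (-0.95), TARS1 (-0.82), SARS1 (-0.76) and WARS1 (-0.72) followed.

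SARS1 and WARS1 read 1177 and 706 with siATF4 in vemurafenib, close to the 1223 and 755 of siCont in DMSO. NARS1 (-0.48), IARS1 (-0.37) and EPRS1 (-0.36) were lower by less, and LARS1, FARSB, RARS1, KARS1, HARS1, VARS1 and FARSA lay between -0.07 and 0.12. The free enzymes had a median of -0.74 (12 genes) and the members of the complex one of -0.04 (5 genes), with overlapping ranges. Of the mitochondrial genes 0 were at least 2-fold apart. Their median was 0.00, and they lay between -0.14 for SARS2 and 0.38 for LARS2, the mitochondrial leucine enzyme.

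Taking siATF4 with vemurafenib against siCont in DMSO, the cytosolic median was -0.10 and the mitochondrial one 0.22, with 0 of 32 at least 2-fold apart, where 1.91% of all genes tested were at least 2-fold higher and 2.82% lower, 4.73% together. YARS1 (-0.72), CARS1 (-0.70), GARS1 (-0.58) and TARS1 (-0.56) were lowest of the cytosolic genes. MARS2 stood at -0.92, beside -0.87 for vemurafenib in siCont cells, and its siATF4 and siCont intensities in vemurafenib were 82.0 and 85.3. No array of siATF4 in DMSO was used here, so the 2 factors cannot be told apart in this pair.

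The glutamine comparison in siCont cells and the siATF4 comparison in vemurafenib have no array in common. Over the 17 cytosolic genes their differences had a Pearson correlation of -0.82 and a Spearman correlation of -0.86. Over the 15 mitochondrial genes these were -0.34 and -0.41. The glutamine and vemurafenib comparisons in siCont cells also share no array, and over the cytosolic genes their correlations were 0.92 (Pearson) and 0.90 (Spearman). Over the mitochondrial genes these were -0.74 and 0.12, opposite in sign, with MARS2 at 1.39 and -0.87. The siCont vemurafenib array and the siCont medium arrays enter both sets of correlations, so these are not separate evidence. All are descriptions across genes of the same few arrays, where genes are not independent. The 6 cytosolic genes with the element lay between 0.83 and 1.48 without glutamine and between -1.29 and -0.37 with siATF4 in vemurafenib. The 8 searched cytosolic genes without it spread from -0.39 to 1.88 and from -0.76 to 0.12, so that EPRS1 (0.96) lay within the first range of the genes with it, and SARS1 and WARS1 within the second. YARS2, the mitochondrial gene with the element, stood at -0.16 and -0.09.

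**Figure D4:**
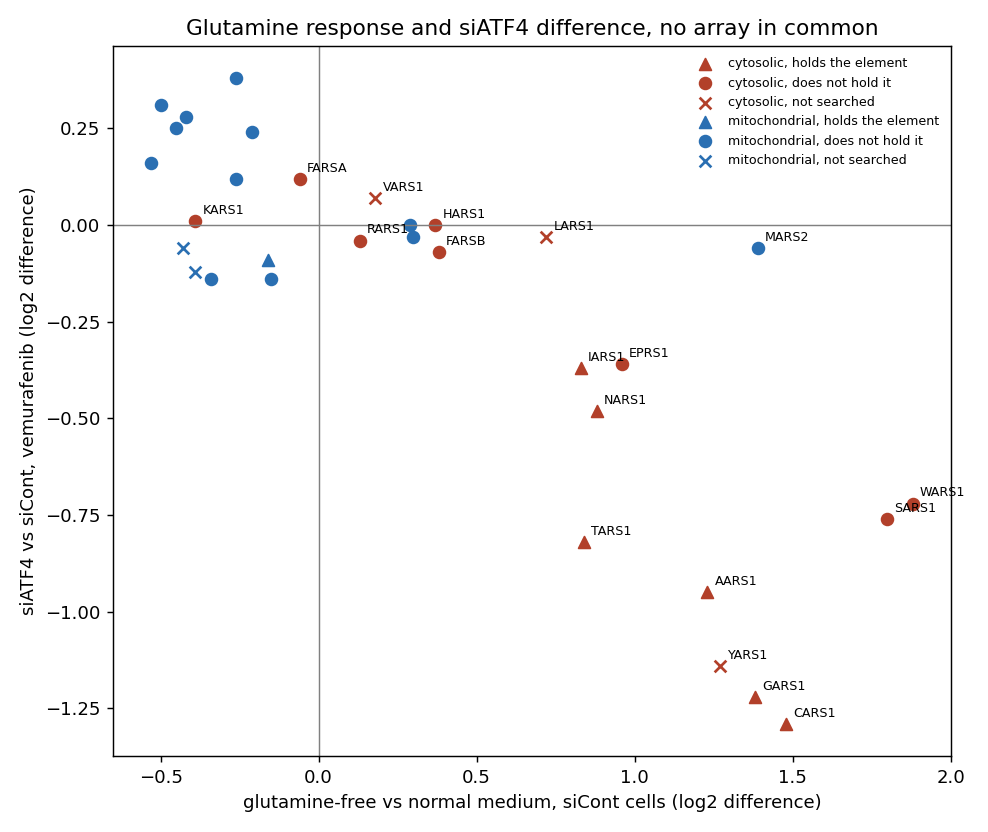
Difference without glutamine in siCont cells (horizontal axis) against the difference with siATF4 in vemurafenib (vertical axis), both of log2(intensity + 1), for 17 cytosolic (red) and 15 mitochondrial (blue) synthetases, with triangles for genes whose promoter window holds the element. CARS1 (1.48 and -1.29) and GARS1 (1.38 and -1.22) lie lowest at the right, WARS1 and SARS1 are farthest right, and MARS2 lies apart from the other mitochondrial genes at 1.39 and -0.06.

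Genes that work with the synthetases were mixed. Of 11 measured accessory genes 2 stood at least 2-fold higher and 1 lower without glutamine in siCont cells, where 5.76% of all genes were higher and 7.22% lower. XPOT, which exports transfer RNA from the nucleus, read 2390 in glutamine-free and 1118 in normal medium, a difference of 1.10. SEPSECS, the last enzyme of selenocysteinyl-tRNA synthesis, read 189 and 69.5 on these arrays, a difference of 1.43. TARS3, a second threonyl-tRNA synthetase, was lower at 18.1 and 39.25, a difference of -1.07, opposite to TARS1 at 0.84. Its 18.1 without glutamine lay close to that array's median of 14.8. The difference of TARS3 with siBRAF without glutamine, given below, uses the same value. AIMP1, a scaffold of the multisynthetase complex, stood at 0.66, where the measured synthetases of the complex ran from -0.39 to 0.96.

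With siBRAF in normal medium TARS3 was at 1.05 and XPOT at -1.20, and 0 other accessory genes were 2-fold apart. Of all genes tested 14.8% were, either way. Without glutamine, TARS3 (2.32) and DTD2 (1.38), which removes D-amino acids from transfer RNA, were higher with siBRAF. XPOT (-2.06), SEPSECS (-1.83) and the related deacylase DTD1 (-1.25) were lower. Of all genes tested 12.8% were at least 2-fold higher in that pair and 10.8% lower. With siATF4 in normal medium 0 of the 11 were at least 2-fold apart, where 0.858% of all genes were. In the drug set 0 of the 11 were as well. There the shares of all genes were 2.78% with vemurafenib and 0.934% with siATF4 in vemurafenib. For siATF4 with vemurafenib against siCont in DMSO the share was 4.73%. XPOT was at 0.54 with vemurafenib and -0.53 with siATF4 in vemurafenib.

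Initiation and elongation factors of cytosolic translation differed less than the cytosolic synthetases without glutamine, with a median of 0.18. Of the 11 measured, 0 were at least 2-fold apart, where 13% of all genes were. EEF1A1 and EEF2, which carry out elongation, stood at 0.00 and 0.10. With siBRAF in glutamine-free medium 3 of the 11 were at least 2-fold lower, the eIF2 subunits EIF2S2 (-1.43) and EIF2S1 (-1.14) and EIF5 (-1.09), where 10.8% of all genes were lower. With siATF4 in vemurafenib their median was -0.01, and EIF2S2 was lowest at -0.65. Of 8 mitochondrial translation factors 0 were 2-fold apart without glutamine, where 13% of all genes were, and their median was 0.11. With siBRAF in that medium MTIF3 was at 1.66, and MTIF2 and MRRF were at -1.16 and -1.09. Of all genes 12.8% were at least 2-fold higher there and 10.8% lower.

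Genes of amino acid synthesis, transport and stress known as ATF4 targets were compared beside the synthetases, and comparisons that share an array are not separate evidence. Without glutamine in siCont cells, 17 of these 20 stood at least 2-fold above normal medium, with a median of 2.03, led by ATF3 (4.21), SESN2 (3.90) and CTH (3.87), where 5.76% of all genes were at least 2-fold higher. In vemurafenib 10 of 20 were at least 2-fold higher with a median of 1.03, where 0.859% of all genes were. With siATF4 in vemurafenib 12 of 20 were at least 2-fold lower with a median of -1.45, where 0.729% of all genes were. The cytosolic synthetase medians in these pairs were 0.84, 0.31 and -0.37. In the change of medium in siBRAF cells the 20 genes had a median of 0.02, beside 0.05 for the cytosolic synthetases. Of the 20, 0 were at least 2-fold apart there, where 0.122% of all genes were.

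A lower threshold of 1.5-fold, chosen after the values were seen, counted more genes on the same arrays. Without glutamine in siCont cells 11 of 17 cytosolic genes were higher and 0 lower, where 13.3% of all genes were higher and 16.7% lower. The change of medium gave 0 of 17 either way in siBRAF cells, where the shares were 0.571% and 0.723%. For siBRAF in normal medium 7 were lower and 0 higher, where 16% of all genes were lower and 15.5% higher. Of the mitochondrial genes 3 of 15 were lower in that pair.

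For siBRAF without glutamine 15 of 17 cytosolic and 2 of 15 mitochondrial genes were lower, where 20.0% of all genes were lower and 22.8% higher. For siATF4 in normal medium YARS1 alone was lower, on the probe set used, where 1.86% were lower and 2.62% higher. In vemurafenib 5 cytosolic genes were higher, where 3.14% were higher and 4.61% lower. For siATF4 in vemurafenib 7 cytosolic genes were lower, where 2.57% were lower and 1.77% higher. For siATF4 with vemurafenib against siCont in DMSO YARS1 and CARS1 were lower, where 7.17% were lower and 7.84% higher.

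Of the 32 genes, 18 had more than 1 probe set paired with exactly 1 symbol. The probe sets of WARS1 gave 1.88 and 1.69 without glutamine, those of EPRS1 0.96 to 1.30 and those of KARS1 -0.39 and -0.42. A dimmer probe set of SARS1 gave 2.74 where the one used gave 1.80, and -3.93 where it gave -1.75 for siBRAF without glutamine. For siBRAF in normal medium these SARS1 probe sets differed in sign, at -1.28 and 0.14. Probe sets of LARS1 ran from -0.21 to 1.24 without glutamine and did not agree in sign. A dim second probe set of YARS1 gave 0.44 where the one used gave 1.27. The 2 other probe sets of FARSB, below the array's median on all 8 arrays, gave -0.07 and -0.52 for siBRAF in normal medium, where the one used gave -1.09.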

How the data were processed

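RNA of A375 cells was measured on 8 Affymetrix arrays, 1 per condition. The authors deposited linear RMA intensity values (the method is named in the submitters' processing notes, its version not given in the sources used here). Of 54675 probe sets 62 were controls. GEO's platform annotation pairs 41091 with 1 symbol, 1801 with several and 11721 with none, and symbols were updated by gene ID through RefSeq's gene table.

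From these values log2(intensity + 1) differences were computed within each array set (Python 3.11.15, pandas 2.3.3), on genes where 1 of 2 values reached the 50th percentile of its array. The added constant makes a fold change understate that of low genes. With 1 array per condition there is no test, and the number of arrays limits the precision. The code was tested on simulated data, a copy of an array with known fold changes planted and no noise added. That checks the arithmetic and not how often real arrays differ. Members and lists were chosen with earlier results of these data known. Named genes were all members, with array intensities for those at least 2-fold apart. The rule also asked for intensities at the ends of each list and on every array of a set, which are given in part, with differences otherwise. Named too were listed genes at least 2-fold apart. EEF1A1, EEF2 and AIMP1 were added after their values were seen, and so were the probe sets quoted. The array's own build is not given in the sources used here. Promoter windows are RefSeq's on GRCh38.p14, and 30 of the 35 genes had one. Alternatives were another added constant, other filters, other choices of probe set and quantile normalization within a set.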

Additional observations from a re-analysis of the deposited data

Results flagged for a closer look

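MARS2 and FARS2 had differences that pointed opposite ways in the 2 backgrounds of 1 contrast, each by at least 0.25 on the log2 scale. MARS2 stood at -0.27 with glutamine-free medium in siBRAF cells and at 1.39 in siCont cells. FARS2, the mitochondrial phenylalanine enzyme, stood at 0.28 with siBRAF in glutamine-free medium and at -0.27 with siBRAF in normal medium. This rests on 1 of its 3 probe sets: the second, also at or above the median on 8 of 8 arrays, gave 0.01 and -0.06, and the dimmest gave -0.15 and -0.26, both below 0. Each value comes from 1 pair of arrays, and the difference between backgrounds was not tested.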

How the results depend on the processing

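No paired analysis was possible because each condition has 1 array and no result comes from a test. The 6 other settings left 196 of 204 list medians and counts within 0.25 (medians) or 1.5 times (counts) of the reported value. These limits were set by hand, since there is no replicate spread. Dropping the filter could change none of these values, since every measured synthetase reached the median on every array. Some medians near 0 changed sign within the limits. The mitochondrial median for siBRAF in glutamine-free medium, reported as 0.02, was -0.12 under the stricter filter. It was -0.09 with averaged probe sets and -0.05 under quantile normalization. For siATF4 in normal medium the mitochondrial median went from 0.08 to -0.03 with averaged probe sets. Averaging a gene's probe sets gave a cytosolic median for siBRAF in glutamine-free medium of -1.01, and 1 cytosolic gene was 2-fold apart with siBRAF in normal medium and 1 in vemurafenib, a different gene (FARSA and SARS1). Without probe sets shared between transcripts, 11 cytosolic genes remained measured, of which 1, 6 and 1 were 2-fold apart with siBRAF in normal medium, with siBRAF without glutamine and with siATF4 in vemurafenib, and the last had a median of -0.69. Under quantile normalization 1 was 2-fold apart with siBRAF in normal medium. At 1.5-fold, added after seeing the data, 11 cytosolic genes were apart without glutamine in siCont cells, 7 with siBRAF in normal medium, 1 with siATF4 in normal medium, 5 with vemurafenib, 7 with siATF4 in vemurafenib and 2 with siATF4 and vemurafenib together. For the mitochondrial genes these counts were 3 with siBRAF in normal medium, 2 with siBRAF without glutamine, 1 with vemurafenib and 1 with siATF4 and vemurafenib together. Of 24 single differences of at least 2-fold, those of YARS1 (0.44 to 1.27 without glutamine, -1.62 to -0.36 with siBRAF, -1.14 to -0.69 with siATF4), FARSB (-1.09 to -0.56 and -1.34 to -0.58 with siBRAF) and FARSA (-1.06 to -0.99) went under 2-fold in at least 1 alternative.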
